A study of Mus musculus with 7 samples.

Results

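The dual-specificity phosphatases described here remove phosphate from both the threonine and the tyrosine of the activation loop of MAP kinases, and so switch off ERK, JNK and p38. The members are Dusp1, Dusp2, Dusp4, Dusp5, Dusp6, Dusp7, Dusp10, Dusp14 and Dusp16, taken by gene symbol from the platform annotation, with the highest-mean transcript cluster to be used where a gene had several. A transcript cluster is a set of array probes summarised to 1 value, usually for 1 gene, although some clusters carry several symbols or none and some genes have several clusters. Of the 9 listed genes 8 had a cluster carrying their symbol alone, each exactly 1, among 14860 such genes and 23332 clusters in all. Dusp5 was not analysed here. The genes were selected on family membership with their signals and group differences on these same arrays already known, so the differences between the groups below are descriptions of the members and support nothing further.

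RNA came from bone marrow of untreated adult FVB mice, sorted for cells that lack lineage markers and carry Sca-1 and c-Kit (LSK cells), which enriches the stem cells and early progenitors of blood. Of the 7 mice, 3 are labelled TRAF6 transgenic (numbers 03, 04 and 05) and 4 are wild-type littermates (21, 22, 23 and 24), with 1 Affymetrix mouse exon array per mouse. TRAF6 is the ubiquitin ligase that relays Toll-like and interleukin-1 receptor signals to NF-kB and, through the kinase TAK1, to the MAP kinases. The series compares both genotypes; the promoter that drives the transgene and the number of transgenic lines are not given in the sources used here. All values are log2 signals made by the authors with RMA, and differences are labelled transgenic minus wild type on that log2 scale.

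Most of these phosphatases are made on demand. Growth factor, stress or Toll-like receptor signals induce their transcripts, the protein removes the activating phosphates, and the loop limits how long a MAP kinase stays active. Dusp1, Dusp2, Dusp4 and Dusp5 encode inducible nuclear enzymes, Dusp6 and Dusp7 encode cytoplasmic enzymes that act mainly on ERK, and Dusp10 and Dusp16 encode enzymes that prefer JNK and p38. Dusp14 is a small enzyme of the atypical class, without the amino-terminal kinase-binding domain of the others.

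Upstream sequences are shown for 4 members, of which Dusp1 and Dusp6 behaved alike on the arrays. Dusp1 and Dusp6 had higher labelled transgenic means with overlap, Dusp2 was lower without overlap, and Dusp10 was level. Each is the 250 bases before the RefSeq start, read 5′ to 3′ on the gene's strand, in build GRCm38.p6. They lie at chr17:26508473-26508722 (minus strand) for Dusp1, chr10:99262981-99263230 (plus) for Dusp6, chr2:127335909-127336158 (plus) for Dusp2 and chr1:184034131-184034380 (plus) for Dusp10. Capitals mark matches to the cyclic AMP response element TGACGTCA or its shorter core TGACG, to the CCAAT box and to the E-box CACGTG, on either strand.
Dusp1: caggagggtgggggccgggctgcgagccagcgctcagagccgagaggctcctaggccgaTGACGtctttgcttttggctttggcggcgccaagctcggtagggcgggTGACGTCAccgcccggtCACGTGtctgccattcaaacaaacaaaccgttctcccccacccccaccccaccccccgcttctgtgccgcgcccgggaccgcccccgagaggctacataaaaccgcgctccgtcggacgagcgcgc
Dusp6: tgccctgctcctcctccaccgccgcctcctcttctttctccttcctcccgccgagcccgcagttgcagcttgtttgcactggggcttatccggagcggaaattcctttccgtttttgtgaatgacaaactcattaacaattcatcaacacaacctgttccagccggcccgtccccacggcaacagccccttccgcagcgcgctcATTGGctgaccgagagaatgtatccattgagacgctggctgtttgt
Dusp2: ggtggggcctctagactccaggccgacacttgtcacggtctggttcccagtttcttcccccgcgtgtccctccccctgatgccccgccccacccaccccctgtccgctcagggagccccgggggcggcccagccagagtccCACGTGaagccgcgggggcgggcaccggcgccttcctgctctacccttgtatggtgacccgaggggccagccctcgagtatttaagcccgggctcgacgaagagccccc
Dusp10: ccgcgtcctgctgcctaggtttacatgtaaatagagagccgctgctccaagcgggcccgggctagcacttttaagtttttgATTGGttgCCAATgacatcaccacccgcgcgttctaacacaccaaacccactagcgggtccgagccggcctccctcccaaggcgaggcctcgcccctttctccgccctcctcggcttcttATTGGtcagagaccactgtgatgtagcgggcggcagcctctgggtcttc

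The table of RefSeq promoters held windows for 8 of the 9 listed genes, all but Dusp4. The full element TGACGTCA, which also counts as 2 overlapping cores, was found in the Dusp1 window alone, 143 to 136 bases before the start, and 1.55% of all 32851 windows of this length hold it. Dusp1, Dusp5 and Dusp16 held the core TGACG, which 17.8% of all windows hold. The CCAAT box was found in the windows of Dusp6, Dusp7, Dusp10 and Dusp16 (33.8% of all windows), and the E-box in those of Dusp1 and Dusp2 (6.02%). A pair of CArG boxes, the sequence that serum response factor reads, lay in the Dusp5 window (1.47% of all windows hold one). None of the 8 windows held TGANTCA, the AP-1 sequence (6.75%), or a match to the kappaB consensus (7.25%). Matches are letters in these windows and were not tested as binding sites.

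Traf6 itself was no higher on the arrays labelled transgenic (7.91 ± 0.34, SD, n = 3, against 8.15 ± 0.16, SD, n = 4), so the arrays give no check of the label. Of 7 measured genes that mark LSK cells, Kit read 10.15 to 10.67 and Cd34 10.77 to 11.19 over the 7 arrays. Of these 7 genes 6 had lower labelled transgenic means, with a median difference of -0.21, while Slamf1 had the positive difference (0.26). Flt3 (-0.67) and Hlf (-0.57), 2 of the 7, were lower without overlap, beside 5.18% of all clusters. Ly6a, the Sca-1 gene, was not analysed here. Mean signals fell at or below the 40th percentile of all clusters for 5 of 6 T and NK cell markers and for 4 of 6 granulocyte and monocyte markers. The same count was 3 of 4 for macrophage and dendritic cell, 1 of 2 for mature erythroid, 1 of 5 for B cell and 0 of 4 for megakaryocyte markers. Labelled transgenic 05 stood apart, with the lowest mean correlation with the other arrays (0.966, against 0.970 to 0.976) and the lowest array median (5.98, against 6.09 to 6.21). The Y-linked gene Eif2s3y read 2.91 to 3.05 on the 3 labelled transgenic arrays and 8.05 to 8.64 on the 4 wild-type arrays, and the labels give no sex. Genotype and this signal cannot be told apart in any difference below.

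No member passed the adjusted threshold of 0.05. Across all clusters limma called 5 of 23332 (0.0214%), none of them a member. Among the 5 were 2 Y-linked genes, Eif2s3y and Kdm5d. The members' adjusted p-values lay between 0.279 and 0.992. At an unadjusted p under 0.05, 4 members were lower and 1 was higher, beside 5.05% of all clusters lower and 5.22% higher. On the arrays themselves, 4 of the 8 members, Dusp2, Dusp4, Dusp14 and Dusp16, had every labelled transgenic value below every wild-type value, and 0 had the reverse. Among all clusters 5.18% were lower without overlap and 5.17% higher without overlap. The median difference of the 8 members was -0.26, in a range of -0.79 to 0.48, against a median of -0.00176 over all clusters. Because the members were listed with this contrast known, these counts describe the list and are not read against the background.

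**Figure D1:**
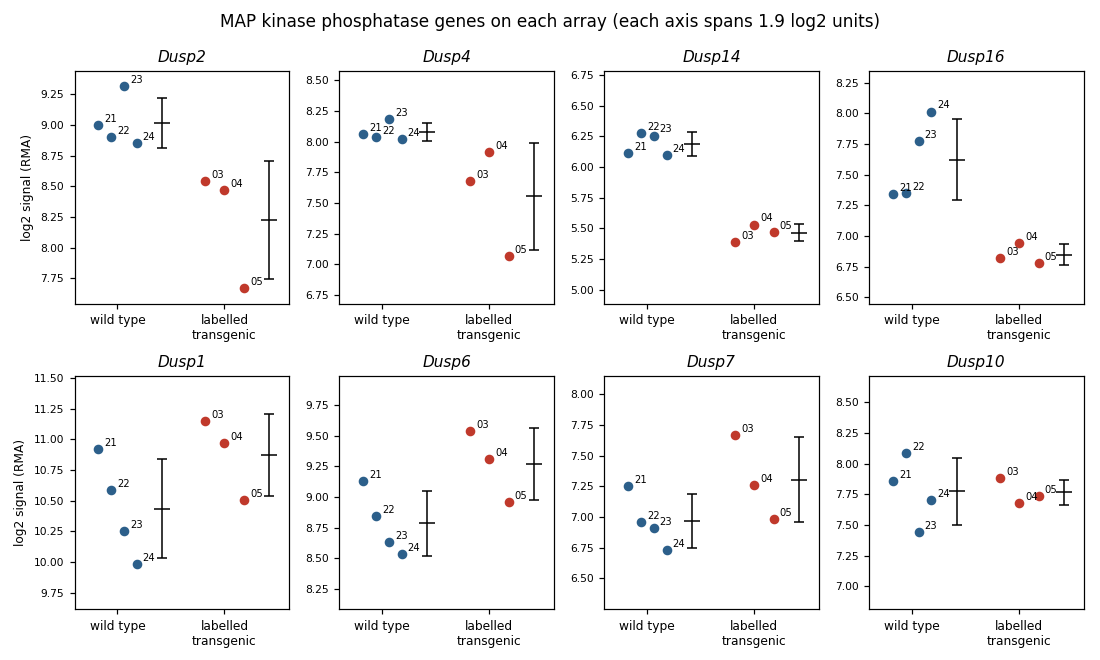
Log2 RMA signal of the 8 measured phosphatase genes on each array, wild type in blue and labelled transgenic in red, with the mouse number beside each point and the mean ± SD at the right of each group. The upper row holds Dusp2, Dusp4, Dusp14 and Dusp16, whose groups do not overlap, and the lower row Dusp1, Dusp6, Dusp7 and Dusp10, whose groups do.

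Among the inducible nuclear enzymes, Dusp1 and Dusp2 went opposite ways. Dusp1 (cluster 6854487), the immediate early phosphatase also called MKP-1, which acts on p38, JNK and ERK, read 11.15, 10.97 and 10.50 on labelled transgenic 03, 04 and 05. Its wild-type values were 10.92, 10.58, 10.25 and 9.98 on arrays 21, 22, 23 and 24. Labelled transgenic 03 and 04 lay above all wild-type arrays, while 05 lay inside their range. The means were 10.87 ± 0.33 (SD, n = 3) and 10.44 ± 0.41 (SD, n = 4), a difference of 0.44 (SE 0.25).

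Dusp2 (cluster 6880987), known as PAC-1 and first studied in activated lymphocytes, read 8.54, 8.47 and 7.67 on labelled transgenic 03, 04 and 05 and 8.996, 8.90, 9.31 and 8.86 on wild type 21, 22, 23 and 24. All 3 labelled transgenic arrays were below all 4 wild-type arrays, with 05 far below 03 and 04. The difference was -0.79 (SE 0.23), from 9.02 ± 0.21 (SD, n = 4) to 8.23 ± 0.48 (SD, n = 3), so wild-type signal was 1.73 times as high. Without labelled transgenic 05 the difference was -0.51.

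Dusp4 (cluster 6975335), the nuclear enzyme MKP-2, read 7.68, 7.92 and 7.07 on labelled transgenic 03, 04 and 05. The wild-type arrays agreed closely, at 8.06, 8.04, 8.19 and 8.02. The groups were 0.10 apart at their nearest values, and array 05 was again the lowest. The means differed by -0.52 (SE 0.20), 7.56 ± 0.44 (SD, n = 3) against 8.08 ± 0.07 (SD, n = 4). Without labelled transgenic 05 this became -0.28, and with each array's median subtracted the groups of Dusp4 overlapped.

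The cytoplasmic ERK phosphatases stood higher on average on the labelled transgenic arrays, with overlap. Dusp6 (cluster 6770160), or MKP-3, which binds ERK and is itself induced by ERK signalling, read 9.53, 9.31 and 8.96 on labelled transgenic 03, 04 and 05 and 9.13, 8.84, 8.63 and 8.54 on wild type 21, 22, 23 and 24. Arrays 03 and 04 exceeded all wild-type values, and 05 was inside their range. The difference was 0.48 (SE 0.19), 9.27 ± 0.29 (SD, n = 3) against 8.78 ± 0.26 (SD, n = 4).

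Dusp7 (cluster 6992172), a near relative of Dusp6 that also acts on ERK, read 7.67, 7.26 and 6.99 on labelled transgenic 03, 04 and 05 and 7.26, 6.96, 6.91 and 6.73 on wild type 21, 22, 23 and 24. Only array 03 was clearly above the wild-type range, and array 04 was level with its upper end. The difference was 0.34 (SE 0.19), 7.31 ± 0.35 (SD, n = 3) against 6.97 ± 0.22 (SD, n = 4). Without labelled transgenic 03 it was 0.16.

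The groups of Dusp1, Dusp6 and Dusp7 overlapped on array 05. Leaving it out, 3 members were higher without overlap, namely these genes, and their differences were 0.62, 0.64 and 0.50. By the same rule 18.7% of all clusters were then higher without overlap and 9.15% lower, and the median difference of all clusters was 0.0371. The part of the low signal of array 05 in these shares was not tested. The difference of Dusp1 was smaller without labelled transgenic 03 (0.30) and without wild type 24 (0.29). Leaving out wild type 21, the highest wild-type array for each of these genes, Dusp6 and Dusp7 were higher without overlap, and Dusp1 was not, beside 8.07% of all clusters higher and 9.09% lower.

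The phosphatases that prefer JNK and p38 differed from each other. Dusp16 (cluster 6957640), or MKP-7, read 6.82, 6.95 and 6.78 on labelled transgenic 03, 04 and 05 and 7.34, 7.35, 7.77 and 8.01 on wild type 21, 22, 23 and 24. The labelled transgenic arrays were close together and all below wild type, whose own spread was wider. The difference was -0.77 (SE 0.19), 6.85 ± 0.09 (SD, n = 3) against 7.62 ± 0.33 (SD, n = 4), which makes wild type 1.71 times as high.

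Dusp10 (cluster 6755896), or MKP-5, read 7.88, 7.68 and 7.73 on labelled transgenic 03, 04 and 05 and 7.86, 8.09, 7.44 and 7.71 on wild type 21, 22, 23 and 24. The labelled transgenic values lay within the wild-type range. The difference was -0.01 (SE 0.16), with a 95% interval from -0.39 to 0.37.

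Dusp14 (cluster 6790317), the atypical member, separated the groups by the widest gap of the 8, with 0.57 between the nearest values. It read 5.39, 5.53 and 5.47 on labelled transgenic 03, 04 and 05 and 6.11, 6.28, 6.26 and 6.10 on wild type 21, 22, 23 and 24. The arrays of each group were close together, and array 05 lay between the other labelled transgenic arrays. The difference was -0.72 (SE 0.10), 5.46 ± 0.07 (SD, n = 3) against 6.19 ± 0.09 (SD, n = 4), so that wild type was 1.65 times as high. Leaving out any 1 array moved it between -0.76 and -0.69, and its adjusted p stayed above 0.05 in the fit as reported (0.279) and in the alternatives tried (0.0666 to 0.597). The labelled transgenic mean was near the 40th percentile of mean cluster signal, 5.50, and no detection call was used.

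The spread between mice of 1 genotype was not alike among the members. The within-group SD of Dusp1 was 0.379, larger than in 79.8% of all clusters, and that of Dusp14 was 0.086, larger than in 6.02%. Wild-type values of Dusp1 spanned 0.94 and those of Dusp4 0.16. The remaining members had within-group SDs from 0.22 (Dusp10) to 0.345 (Dusp2).

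Some members varied together across the arrays, and the pairs given here were picked after their values were seen. Dusp1 and Dusp6 correlated at Pearson r = 0.97 (Spearman rho = 0.96) over the 7 arrays, and at 0.98 for their deviations from the group means. Without the 2 arrays farthest from the median of Dusp1, r was 0.95 over 5 arrays. Dusp7 gave r = 0.96 with Dusp6 and 0.93 with Dusp1. Dusp2 and Dusp4 had r = 0.96, and 0.91 for deviations from the group means, where array 05 was low for both, and r was 0.78 without the 2 arrays farthest from the median of Dusp2. Dusp14 and Dusp16 had r = 0.83 over all arrays but -0.18 for deviations, so that they shared the step between the groups and not the variation within them. Dusp10 followed no other member closely, its highest correlation being r = 0.41 with Dusp1. Values of 1 array share its RNA, its labelling and its scaling, and these correlations are descriptions.

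**Figure D2:**
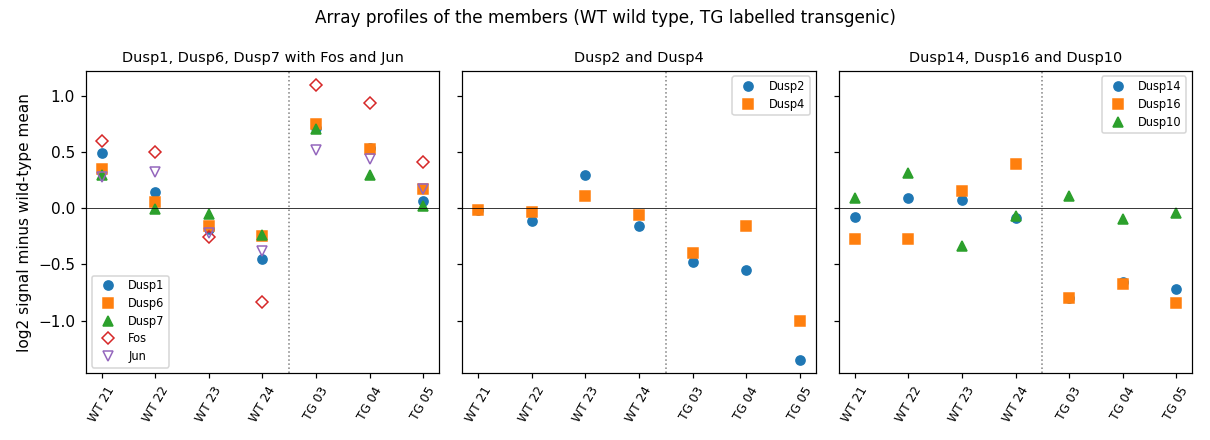
Log2 signal of each gene minus its wild-type mean, for the wild-type (WT) and labelled transgenic (TG) arrays on either side of the dotted line, with open symbols for the immediate early genes Fos and Jun. Dusp1, Dusp6 and Dusp7 are lowest in their wild-type group on array 24, as is Fos, Dusp2 and Dusp4 are lowest on labelled transgenic 05, and Dusp14 and Dusp16 change level between the groups.

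Most immediate early genes varied with Dusp1 within the groups, and Fos and Jun correlated with it most closely over all arrays. Fos, the AP-1 subunit induced within minutes of stimulation, read 10.23, 10.14, 9.38 and 8.81 on wild type 21, 22, 23 and 24, and 10.74, 10.58 and 10.05 on labelled transgenic 03, 04 and 05. Its correlation with Dusp1 was r = 0.96 (rho = 1) over 7 arrays, and 0.95 for deviations from the group means. For Jun, the partner of Fos, r with Dusp1 was 0.94 (rho = 0.96). Egr1 (r = 0.87), Atf3 (0.79), Ier2 (0.78) and Junb (0.67) came next. Over the 11 measured immediate early genes r with Dusp1 ran from -0.46 (Egr3) to 0.96 (Fos), and that of Nr4a1 was -0.43. For deviations from the group means it was 0.81 to 0.99 in 9 of the 11, 0.30 for Nr4a1 and -0.12 for Egr3. Wild type 24 was the lowest of the 4 wild-type arrays for 6 of 8 members and for 8 of 11 measured immediate early genes, against 19.1% of all clusters. The margin was small for Dusp2 (8.86, next 8.90), Dusp4 (8.02, next 8.04) and Dusp14 (6.10, next 6.11). For Dusp16 array 24 was the highest. Whether the variation shared with immediate early genes has a part in the difference of Dusp1, Dusp6 or Dusp7 was not tested.

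Between the groups, Fos differed by 0.82 (SE 0.37, adjusted p = 0.504), Jun by 0.37 (adjusted p = 0.572), Egr1 by 0.15 (adjusted p = 0.846) and Ier2 by -0.03 (adjusted p = 0.975), all with overlap. Nr4a1, an orphan nuclear receptor gene, differed by -0.83 (SE 0.15, adjusted p = 0.279) and had all 3 labelled transgenic arrays (10.41 to 10.92) below all 4 wild-type arrays (11.31 to 11.61). The median of the 11 immediate early genes was -0.06, and 0 passed the adjusted threshold. This median was 0.06 without labelled transgenic 05 and -0.13 without wild type 24.

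The other DUSP-numbered genes give the frame for the family. Of 15 listed, 13 had a cluster of their own, and 0 passed the adjusted threshold in limma. At an unadjusted p under 0.05, 3 were lower and 0 higher, beside 5.05% and 5.22% of all clusters. Their median difference was -0.06, with 10 lower and 3 higher. Without overlap 4 of the 13 were lower, Dusp3, Dusp8, Dusp18 and Dusp28, and 0 higher, beside 5.18% and 5.17% of all clusters. Dusp18 and Dusp28 were named after their values were seen. Dusp8, a phosphatase of JNK and p38 like Dusp16, read 6.76, 6.57 and 6.61 on labelled transgenic 03, 04 and 05 and 7.11, 7.14, 7.15 and 7.06 on wild type 21, 22, 23 and 24. It differed by -0.47 (SE 0.10, adjusted p = 0.283).

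Dusp9, which acts on ERK like Dusp6 and Dusp7, differed by -0.06 (SE 0.14, adjusted p = 0.908), with overlap. Dusp3, the small atypical phosphatase VHR, differed by -0.33 (SE 0.12, adjusted p = 0.430), and its groups were 0.03 apart at their nearest values. Dusp18 differed by -0.67 (SE 0.18, adjusted p = 0.342) and Dusp28 by -0.21 (SE 0.11, adjusted p = 0.571). Counted together, 8 of 21 measured DUSP genes were lower without overlap and 0 higher, beside the same 5.18% and 5.17% of all clusters. The list of 21 contains the members and so shares their choice, and nothing is read from its count.

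**Figure D3:**
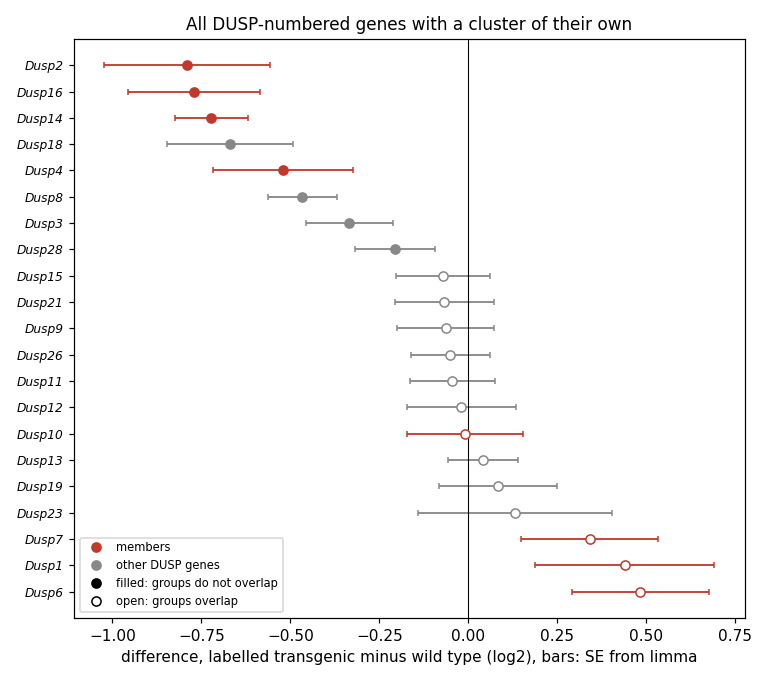
Difference in log2 signal, labelled transgenic minus wild type, with the SE from limma, for the 21 DUSP-numbered genes with a cluster of their own, members in red and others in grey. Filled points are the 8 genes whose groups do not overlap, all on the lower side, and Dusp6, Dusp1 and Dusp7 lie at the higher end with open points.

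The kinases on which these enzymes act were measured in part. Of 13 MAP kinase genes 11 had a cluster of their own, with a median difference of -0.10, and 0 passed. Mapk14, the main p38 kinase, differed by 0.11 (SE 0.18, adjusted p = 0.864) and Mapk8, which encodes JNK1, by -0.24 (SE 0.23, adjusted p = 0.762), which was -0.04 without labelled transgenic 05. Of 6 measured MAP kinase kinase genes 4 were higher and 2 lower, with a median of 0.08 that was -0.02 without labelled transgenic 03 and 0.22 without 05. Map2k1, which encodes the ERK activator MEK1, differed by 0.48 (SE 0.16, adjusted p = 0.403). Its 3 labelled transgenic values (7.85 to 8.44) lay above the 4 wild-type values (7.61 to 7.82), with 0.03 between the nearest. Map2k3 of the same list was lower without overlap (-0.44), with 0.17 between the nearest values. Of the MAP kinases, 1 was lower without overlap, Mapk6 (-0.52), and 0 higher. Among all clusters 5.17% were higher and 5.18% lower without overlap. Of the tyrosine phosphatases of MAP kinases, Ptpn5 and Ptprr were measured, with a median of -0.08.

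Genes that ERK induces alongside Dusp6 did not share one direction. Of 14 such genes 10 were lower and 4 higher, with a median of -0.19, and 0 passed in limma. At an unadjusted p under 0.05, 4 were lower and 0 higher, beside 5.05% and 5.22% of all clusters. Without overlap 4 were lower and 1 was higher, beside 5.18% and 5.17% of all clusters. The higher gene, by a margin near 0 at its nearest values, was Etv4, an ETS factor gene (0.22, SE 0.12, adjusted p = 0.571). It was named after its values were seen. Phlda1 read 7.02, 7.01 and 7.16 on labelled transgenic 03, 04 and 05 and 7.91, 8.11, 8.04 and 7.79 on wild type 21, 22, 23 and 24, a difference of -0.90 (SE 0.12, adjusted p = 0.227). With 1 cluster per gene its adjusted p was 0.0395. The Sprouty genes, inhibitors of receptor signalling to ERK, differed by 0.13 (Spry1, adjusted p = 0.751), -0.51 (Spry2, adjusted p = 0.413) and -0.15 (Spry4, adjusted p = 0.724), with overlap in each.

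Of the related inhibitor genes Spred1 and Spred2, the differences were -0.03 (adjusted p = 0.978) and -0.26 (adjusted p = 0.625). Etv5, an ETS factor gene induced by ERK, differed by -0.33 (SE 0.31, adjusted p = 0.757), which was 0.03 without labelled transgenic 05. Ccnd1, the cyclin D1 gene, differed by -0.24 (SE 0.12, adjusted p = 0.558), with groups 0.05 apart at their nearest values. The positive mean differences of Dusp1, Dusp6 and Dusp7 thus stood beside values on either side of 0 in this list.

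**Figure D4:**
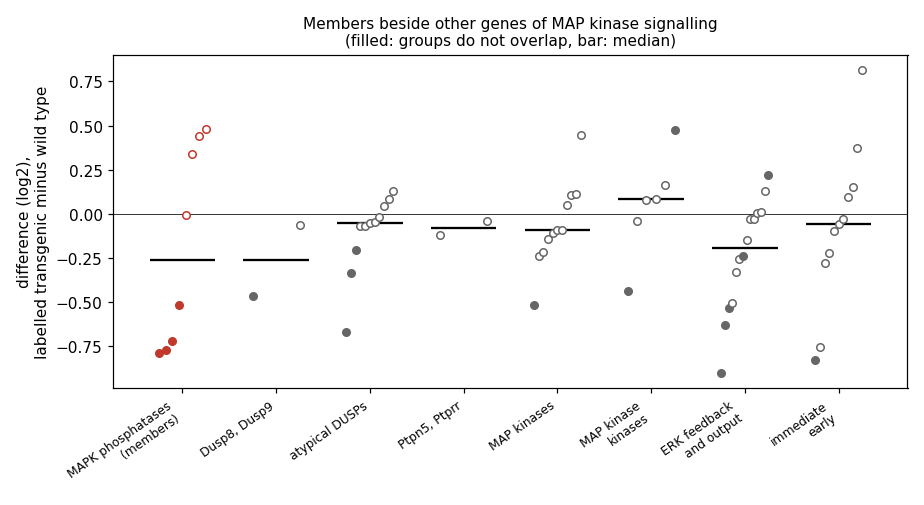
Difference in log2 signal, labelled transgenic minus wild type, for each measured gene of the members (red) and of 7 comparison lists (grey), with the list median as a bar and filled points where the groups do not overlap. The members spread from -0.79 to 0.48, with medians of -0.26 for the members, -0.19 for ERK feedback and output genes and -0.06 for immediate early genes.

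Several genes of the B cell and megakaryocyte marker lists differed along the same division of arrays. Of 5 measured B cell markers 3 were lower without overlap, Ebf1 (-1.43), Cd79a (-0.67) and Pax5 (-0.66), beside 5.18% of all clusters. Cd79b (0.41), which had the highest signal of the 5, and Ms4a1 (0.20) had higher labelled transgenic means with overlap. For the whole list log2 of the summed signal ran from 8.58 to 8.93 on labelled transgenic and 8.82 to 9.17 on wild-type arrays. The sort took cells without lineage markers, and whether mature B cells were present was not tested. Of 4 megakaryocyte markers 2 were lower without overlap, Pf4 (-0.52) and Ppbp (-0.52), beside the same 5.18% of all clusters. Itga2b (-0.11) and Gp9 (0.09) had groups that overlapped. The log2 sum of the 4 ran from 11.40 to 11.81 on labelled transgenic and from 11.90 to 12.21 on wild-type arrays. Whether megakaryocytes were present was not tested either. Flt3, a receptor of early lymphoid progenitors within the LSK gate, differed by -0.67. No gene of either list was at 0, which this scale does not reach. Their part in the lower Dusp2, Dusp4, Dusp14 and Dusp16 values was not tested, and in sorted bulk RNA fewer cells of a type and less RNA per cell cannot be told apart.

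The members' mean profile, which averages genes that went opposite ways, was correlated over the 7 arrays with every gene outside the members. Tesk1 (r = 0.98), Mamdc2 (r = 0.98), Marveld1 (r = 0.97), Cdh23 (r = 0.97) and Hexim1 (r = 0.97) came first. They are like this average, not necessarily like any 1 member, and are given as a description only. The members' mean profile was lowest on labelled transgenic 05, at -0.38 from its mean over the arrays, and highest on wild type 21, at 0.19.

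**Figure D5:**
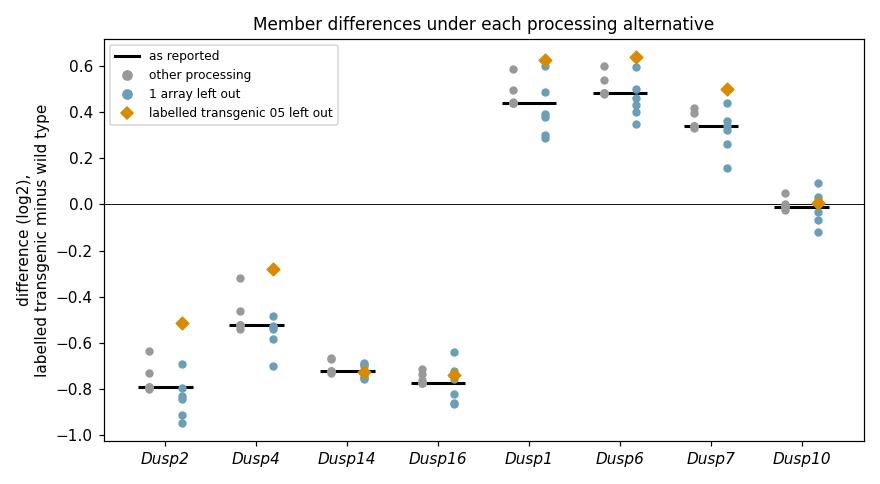
Difference in log2 signal of each member as reported (black bar), under other processing (grey), with 1 array left out (blue) and with labelled transgenic 05 left out (orange). Dusp14 and Dusp16 stay between -0.86 and -0.64, Dusp2 and Dusp4 come nearer 0 without array 05 (-0.51 and -0.28), and Dusp1, Dusp6 and Dusp7 stay above 0.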

How the data were processed

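Each column of the deposited table is 1 mouse's array, holding log2 values that the authors made with RMA. Both RMA and the mouse build mm9 come from the submitters' processing notes. The sources used here do not give the RMA settings or probe filters. The log2 scale was inferred from the range of values, 1.28 to 14.03. The deposited arrays were not fully equalised, with medians from 5.98 to 6.21. The platform annotation gave 14996 clusters 1 symbol, 1019 several and 7317 none. No symbol changed through Entrez identifiers, and 55 single-symbol clusters had no match in the RefSeq table of GRCm38.

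Differences were fitted over all 23332 clusters and 7 arrays with limma 3.58.1 (lmFit, eBayes) in R 4.3.3, two-sided, with genotype as the only term and Benjamini-Hochberg adjustment over all clusters at a threshold of 0.05. The fit was tested on simulated data of 3 against 4 arrays, with noise drawn independently for each cluster. It recovered 10 of 50 changes of 1.5-fold, 26 of 50 of 2-fold and 46 of 50 of 4-fold, so most changes of 1.5-fold were missed. Of 23132 unchanged clusters 3 were called. P-values rest on the variation among these mice, and precision is limited by the number of arrays. No array duplicated another (highest pairwise correlation 0.983). The members, lists and named genes were chosen with earlier results of these data known: all members were to be named, and other genes by name and not by how they moved. Alternatives were leaving out each array, 1 cluster per gene, array weights, median centring, quantile normalization, a robust prior with an intensity trend, and a filter that drops clusters up to the 40th percentile of signal. Promoter windows are from RefSeq, build GRCm38.p6. Plots were made in Python 3.11.15 with matplotlib 3.10.9.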

Additional observations from a re-analysis of the deposited data

Results flagged for a closer look

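Among 27 named genes, 2 had a wild-type array far from the other 3 by Dixon's criterion, where chance flags about 5% of groups. Spry4 read 4.94 on wild type 23 and 5.25 to 5.26 on the others, a gap of 0.965 of the group's range. Mapk14 read 8.91 on wild type 22 and 9.28 to 9.32 on the others, a gap of 0.891 of the range. No member was among them.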

How the results depend on the processing

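No paired analysis was possible because the groups share no replicate numbers. In the fit as reported and under the 13 alternatives, 0 of 8 members passed the adjusted threshold, and 7 of the 8 kept the sign of their difference, all but Dusp10. The count of clusters called was 5 as reported, 4 to 6 under other processing, and 2 to 4 on leaving out 1 array, lowest without labelled transgenic 05 (2) and at 3 without wild type 21, 22 or 24. Omitting an array cannot make separated groups overlap, so the 4 members lower without overlap stayed so by construction, and other counts could only stay or rise. Quantile normalization, which can change this count, left 4, and median centring left 3. Leaving out 1 array gave 0 to 3 members higher without overlap, with 3 without labelled transgenic 05 and 2 without wild type 21 (18.7% and 8.07% of all clusters). The median of the members ran from -0.33 to -0.14 on leaving out 1 array, nearest 0 without labelled transgenic 05, and was -0.16 with array weights. Over the same omissions the median of the ERK feedback list ran from -0.23 to -0.0806, and it was -0.0705 with array weights. That of the MAP kinases ran from -0.11 to -0.0400, and was -0.0424 after quantile normalization and -0.0373 after median centring. Centring moved the median of all clusters to 0.0560. Signs turned mostly for values near 0, but also for Etv5 (-0.33 as reported) and Egr1 (0.15 as reported). The median of the MAP kinase kinases ran from -0.0190 to 0.219 on leaving out 1 array. That of the immediate early genes ran from -0.13 to 0.0588, with 0.000843 after centring and 0.0462 with array weights. Dusp10 stood at 0.0487 after centring and 0.00297 with array weights, and between -0.12 and 0.0950 on leaving out 1 array. Spred1 stood at 0.0281 and 0.191 in these settings, and between -0.17 and 0.23. Ier2 stood at 0.0280 and 0.0597, and between -0.13 and 0.0851. Etv5 ran from -0.59 to 0.0293 and Egr1 from -0.0132 to 0.27 on leaving out 1 array. Phlda1 passed with 1 cluster per gene (adjusted p = 0.0395, in a range of 0.0395 to 0.597). Why these values moved was not tested, except that fewer arrays or clusters enter some fits. The filter on low signal left no gene of the tyrosine phosphatase list, and averaging clusters was not run because each member has 1.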

Other observations

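Some genes of the same pathways were picked after their values were seen, for their lower values, and are given as values. Ier3, an early response gene of ERK and NF-kB signalling, read 9.67 to 10.05 on the labelled transgenic arrays and 10.41 to 10.47 on the wild-type arrays, a difference of -0.53 (SE 0.12, limma adjusted p = 0.298). Epha2, a receptor kinase gene induced by ERK, differed by -0.63 (SE 0.17, adjusted p = 0.360). Map2k3, whose product activates p38, differed by -0.44 (SE 0.12, adjusted p = 0.354), and Mapk6, the atypical kinase ERK3, by -0.52 (SE 0.16, adjusted p = 0.382). In each of these genes every labelled transgenic array was below every wild-type array. Egr3 differed by -0.75 (SE 0.30, adjusted p = 0.455), with wild-type values from 5.94 to 7.23 that overlapped the labelled transgenic range of 5.52 to 5.96.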
